A study of Mus musculus with 4 samples.

Results

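The cytosolic heat shock genes Hspa1a, Hspa1b, Hspa8, Hsph1, Hsp90aa1, Hsp90ab1, Hspb1, Hspb8, Dnajb1 and Bag3 were followed in cells sorted from the mouse submandibular salivary gland. They were taken by gene name, with every non-control probe that carries it. Of the 10 genes, 9 had a probe, and these held 12 of the 55681 probes on the array. Hspa1b had none under its own name. All 12 probes were well above background on all 4 arrays, so none was lost to the filter on dim probes, which 22662 probes passed. RNA of 2 groups was compared, each with 2 arrays: salivary gland stem cells and the non-stem cell epithelia of the same gland, both freshly sorted by flow cytometry (FACS). Both groups came from C57BL/6 mice aged 8 to 10 weeks, and no treatment, transgene or deleted gene is named for either. The sources used here do not give the antibodies and gates of the sort, the sex of the mice or whether animals were pooled. The labels do not tell whether the 2 arrays of a group stand for separate mice or separate sorts. The p-values therefore reflect only how far these samples spread, which may be technical.

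Heat shock proteins are molecular chaperones. Hsp70 proteins bind exposed stretches of unfolded clients in a cycle driven by ATP, which J-domain proteins such as Dnajb1 start and exchange factors such as Hsph1 and Bag3 reset. Hsp90 proteins finish the folding of kinases, steroid receptors and other signalling proteins, and small heat shock proteins hold unfolded clients without ATP. In stress the transcription factor HSF1 binds heat shock elements and raises the inducible members. These elements are alternating copies of the triplet GAA and its reverse complement, TTC. Hspa8 and Hsp90ab1 are the largely constitutive forms.

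Some sequences are shown first because they set what can be read from the Hsp70 signals. The single Hspa1a probe is annotated to the Hspa1a and the Hspa1b transcripts alike, so the 2 genes cannot be told apart here and its signal is called Hspa1a/Hspa1b below. The probe of Hspa1l, the third gene of this cluster, overlaps it over 57 bases, of which 42 (73.7%) match. A probe of Hspa8 overlaps its end over 23 bases, of which 15 (65.2%) match. Capitals mark the matching bases, in the first pair with each other and in the Hspa8 probe with the Hspa1a/Hspa1b probe. All are written 5′ to 3′ as in the scanner files. The last line is the Hspa8 probe that lies nearest the 5′ end and whose difference had the opposite sign to that of the probe nearest the 3′ end; it has no capitals.
Hspa1a/Hspa1b probe: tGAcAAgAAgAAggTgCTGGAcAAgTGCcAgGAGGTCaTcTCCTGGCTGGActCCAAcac
Hspa1l probe: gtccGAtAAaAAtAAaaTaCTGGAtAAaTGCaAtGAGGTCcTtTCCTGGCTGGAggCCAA
Hspa8 probe A_55_P2069721: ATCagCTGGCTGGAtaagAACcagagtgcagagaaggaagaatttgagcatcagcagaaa
Hspa8 probe A_52_P12877: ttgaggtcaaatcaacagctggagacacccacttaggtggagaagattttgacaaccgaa
The Hspa1l probe was not well above background on any of the 4 arrays. The other 5 Hsp70 family probes set beside the Hspa1a/Hspa1b probe matched in 36.0% to 41.7% of their overlap. Cross-hybridisation was not tested.

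Promoter windows, from 250 bases before to 50 bases after a transcript start, were found for 7 of the 10 genes in the RefSeq table of GRCm38.p6, with 9 windows in all; Hspa8, Hsp90aa1 and Hsp90ab1 had no entry. A 2-unit heat shock element, GAANNTTC or TTCNNGAA, read on both strands, stood in the windows of 6 of the 7 genes, against 17.0% of all genes with a window and 15.1% of all windows. Dnajb1 was the gene without a match in either of its windows. A 3-unit element, GAANNTTCNNGAA or TTCNNGAANNTTC, which contains the shorter form, stood in 1 of the 7, Hsph1, after its start sites, against 0.662% of all genes and 0.603% of windows. The stretches shown lie before the start and hold the upstream 2-unit matches of Hspb1, the gene with the largest rise, of Hsph1, and of the Hspa1a and Hspa1b pair, with the matching letters in capitals. The other matches of Hsph1, its 3-unit element among them, lie after the start and are not shown. The only matches of Hspb8 and Bag3 also lie after the start.
Hspb1 (GRCm38.p6, chr5:135887772-135887859, plus strand): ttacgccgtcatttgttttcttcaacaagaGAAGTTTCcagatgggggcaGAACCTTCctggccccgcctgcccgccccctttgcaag
Hsph1 (GRCm38.p6, chr5:149636337-149636399, minus strand): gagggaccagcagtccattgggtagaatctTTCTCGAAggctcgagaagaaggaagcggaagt
Hspa1a (GRCm38.p6, chr17:34972223-34972290, minus strand): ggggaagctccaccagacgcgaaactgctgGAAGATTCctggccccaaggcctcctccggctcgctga
The Hspa1b stretch (chr17:34959305-34959372, minus strand) has the same letters as that of Hspa1a, and the 250 bases before the 2 start sites matched in 247 positions (98.8%). Hspb1 was the only one of the 7 with 2 matches before its start. Genes with a match included some called higher (Hspb1), some called lower (Hspb8) and some not called (Bag3, Hsph1, Hspa1a), and a match is a description of letters, not of binding.

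Levels are given as background-corrected spot intensity and as log2 of it relative to the 75th percentile of the same array, the scale on which arrays were compared. That percentile was 30.4 and 43.3 in stem cells 1 and 2, against 74.8 and 63.0 in non-stem cell epithelia 1 and 2. Between 34.7% and 41.3% of probes stood well above background on an array, fewer on the stem cell arrays, and saturation was not seen. The direction of every rise below holds relative to the other transcripts on the same array. The array's own spike-in control spots were brighter on the stem cell arrays, by 2.26 on the log2 scale after the percentile shift (mean of 7 of the 10 spike-ins, without the 2 dimmest and the brightest), and with arrays scaled on them the median of all genes was -2.27. On that scale no heat shock gene was higher in stem cells. The sources used here do not say how much spike-in RNA went into each sample.

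Relative to the other transcripts, stem cells carried more Hspb1, Dnajb1 and Hsp90ab1 and less Hspb8 than non-stem cell epithelia, and the Hsp70 genes of the inducible pair did not pass the test. Hspb1 was 4.23-fold higher and Dnajb1 2.19-fold higher, Hsp90ab1 was 1.49-fold higher close to the threshold, and Hspb8 was 2.51-fold lower; on the spike-in scale the 3 rises turned negative (-0.18, -1.13 and -1.68) and Hspb8 stood at -3.58. By limma with Benjamini-Hochberg adjustment over all 22662 probes, 3 of the 12 probes were higher and 1 lower, against 28.8% of all probes called. By gene, each given by its brightest tested probe, 3 of the 9 were higher and 1 was lower, or 44.4%, against 28.9% of all 17336 genes. In sorted bulk RNA such as this, fewer cells of a type and less RNA per cell cannot be told apart. In all, 13.1% of genes were called higher and 15.8% lower. The median difference of the 9 genes was 0.23 on the log2 scale, against -0.01 for all genes tested. Calls that were higher made up 44.8% of all probe calls, but 58.7% with the percentile taken over detected probes, 27.5% with normexp background correction and 0.678% on the spike-in scale.

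**Figure D1:**
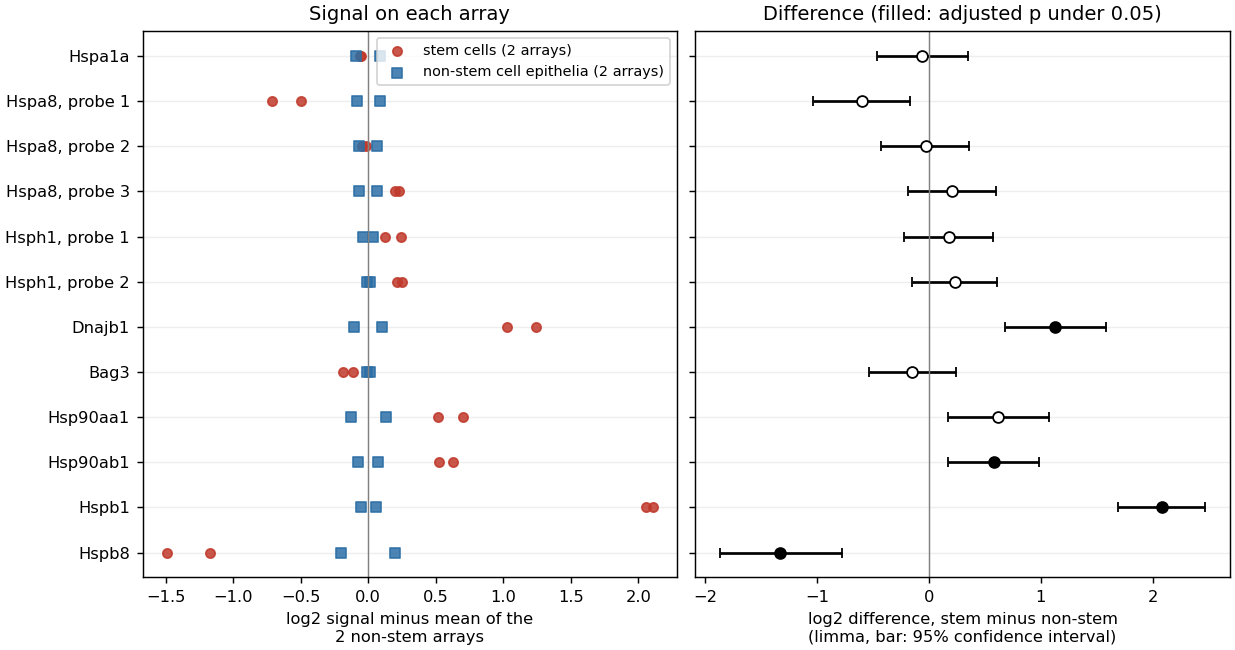
Left, log2 signal of each of the 12 heat shock probes on each array, relative to the array's 75th percentile and drawn around the mean of the 2 non-stem arrays; right, the log2 difference, stem cells minus non-stem cell epithelia, from limma with its 95% confidence interval, filled where the adjusted p was under 0.05. Probes of one gene are numbered from the 5′ end of the transcript. Hspb1 (2.08), Dnajb1 (1.13) and Hsp90ab1 (0.58) stand right of 0 and Hspb8 (-1.33) left of it; on the spike-in scale all 4 stand left of 0.

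Among the small heat shock proteins, Hspb1 was higher and Hspb8 lower relative to the 75th percentile, while on the spike-in scale both were below 0 (-0.18 and -3.58). Hspb1 (Hsp27 in human cells) holds unfolded clients and binds actin filaments. Its probe (chromosome 5, 136365366 to 136365425, plus strand, mm9) read an intensity of 2379.8 and 3512.6 in stem cells 1 and 2, against 1463.9 and 1142.1 in non-stem cell epithelia 1 and 2. Both stem cell arrays were above both non-stem arrays even before scaling. On the log2 scale the means were 6.32 ± 0.04 and 4.24 ± 0.08 (SD, n = 2 arrays each), a difference of 2.08 ± 0.16 (SE, 95% interval 1.69 to 2.47), with an adjusted p of 0.0013 by limma. A rise larger than this was seen in 1.76% of all tested probes. The call held when any 1 array was left out, with differences of 2.03 to 2.13 and adjusted p up to 0.031.

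Hspb8, which works with Bag3 to send misfolded clients to autophagy, fell. Its probe (chromosome 5, 116859063 to 116859122, minus strand, mm9) read 101.1 and 179.7 in stem cells, against 606.4 and 672.9 in non-stem cell epithelia. The groups did not overlap in intensity or after scaling. The log2 means were 1.89 ± 0.23 and 3.22 ± 0.28 (SD, n = 2), a difference of -1.33 ± 0.22 (SE, 95% interval -1.87 to -0.78), with an adjusted p of 0.012 by limma. Larger falls were seen in 6.67% of tested probes. Without non-stem cell epithelia 1 the difference was -1.53 and the adjusted p of the limma fit 0.053, and without non-stem cell epithelia 2 they were -1.13 and 0.093.

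The 2 small heat shock genes can also be set against each other within each array, where scaling cancels. The log2 signal of the Hspb1 probe minus that of the Hspb8 probe was 4.56 and 4.29 in stem cells, against 1.27 and 0.76 in non-stem cell epithelia. The gap was wider on both stem cell arrays, by 3.41 on average. This change, like those of the later gaps between probes, follows from the differences of the 2 probes and is not further evidence. The 2 genes are also the members with the largest rise and the largest fall. Signals of different probes are not comparable as levels, so only the change of the gap is read, and it shows unequal change of the 2 transcripts, not which of them changed.

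In the Hsp70 system, the J-domain protein gene Dnajb1 (Hsp40), which starts the Hsp70 cycle, rose. Its probe (chromosome 8, 86135660 to 86135719, plus strand, mm9) read 710.9 and 1179.0 in stem cells, against 927.9 and 673.7 in non-stem cell epithelia. These intensities overlap between the groups, and the separation appears once each array is set against its own 75th percentile. There the means were 4.66 ± 0.16 and 3.53 ± 0.15 (SD, n = 2), a difference of 1.13 ± 0.18 (SE, 95% interval 0.68 to 1.58), with an adjusted p of 0.010 by limma; on the spike-in scale the difference was -1.13. Without non-stem cell epithelia 1 the adjusted p by limma was 0.061 (difference 1.24), and without non-stem cell epithelia 2 it was 0.092 (difference 1.02).

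The stress-inducible Hsp70 genes Hspa1a and Hspa1b, read by their shared probe (chromosome 17, 35107117 to 35107176, minus strand, mm9), did not pass the test. The probe read 764.0 and 1092.2 in stem cells, against 1839.9 and 1757.6 in non-stem cell epithelia. On the log2 scale the stem cell values, 4.65 and 4.66, lay between the non-stem values, 4.62 and 4.80. The difference was -0.06 ± 0.16 (SE, 95% interval -0.46 to 0.35), with an adjusted p of 0.81 by limma, and it was 0.03 without non-stem cell epithelia 2. Normexp background correction gave -0.49 with an adjusted p of 0.020 by limma. The gap between Dnajb1 and this probe within an array was -0.10 and 0.11 in stem cells, against -0.99 and -1.38 in non-stem cell epithelia, so Dnajb1 and the inducible Hsp70 pair changed unequally, by 1.19.

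Hspa8, the constitutive Hsp70 known as Hsc70, had 3 probes, and they did not give 1 direction. The probe nearest the 3′ end (transcript position 2044; chromosome 9, 40613223 to 40613282, plus strand, mm9), which was the brightest, read 11972.5 and 17373.7 in stem cells, against 26929.7 and 20718.9 in non-stem cell epithelia. Its scaled difference was 0.21 ± 0.16 (SE, n = 2 per group; adjusted p = 0.36 by limma). The probe at position 1812 differed by -0.03 ± 0.16 (adjusted p = 0.90 by limma), with the stem cell values inside the range of the non-stem values. The probe nearest the 5′ end (position 730; 40611142 to 40611201) read 551.6 and 913.4 in stem cells, against 2100.1 and 1980.5 in non-stem cell epithelia. It differed by -0.60 ± 0.17 (95% interval -1.04 to -0.17), just outside the threshold at an adjusted p of 0.053 by limma. Without stem cells 2 it was -0.71 with an adjusted p of 0.028 by limma, and under normexp -1.02 with an adjusted p of 0.00052. It was called lower in 5 of 13 other settings.

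Set against each other on the same array, the 3′ minus the 5′ probe of Hspa8 gave 4.44 and 4.25 in stem cells, against 3.68 and 3.39 in non-stem cell epithelia. The gap was wider on both stem cell arrays, by 0.81. Over 1172 transcripts with tested probes at least 1000 bases apart, the 3′ minus the 5′ difference had a median of 0 (quartiles -0.47 and 0.44) and was positive in 49.7%. In 12.1% of them it was at least as large as for Hspa8. RNA length was not measured on these arrays, and its part in the Hspa8 probes was not tested.

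Hsph1 and Bag3, which both help Hsp70 release its clients, did not pass the test. The 2 probes of Hsph1 (Hsp110) differed by 0.18 ± 0.16 and 0.23 ± 0.15 (SE, n = 2 per group; adjusted p = 0.43 and 0.30 by limma). The brighter of them read 248.8 and 363.6 in stem cells, against 531.3 and 442.2 in non-stem cell epithelia. Bag3, an HSF1 target that couples Hsp70 to small heat shock proteins, read 268.5 and 360.4 in stem cells, against 704.9 and 603.7 in non-stem cell epithelia. Its difference was -0.15 ± 0.15 (95% interval -0.54 to 0.24; adjusted p = 0.50 by limma), and -0.50 with an adjusted p of 0.014 under normexp. The within-array gap between Dnajb1 and Bag3 was 1.40 and 1.71 in stem cells, against 0.40 and 0.16 in non-stem cell epithelia, wider in stem cells by 1.28.

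The 2 cytosolic Hsp90 genes gave nearly the same difference on either side of the threshold. Hsp90ab1, the constitutive Hsp90β (chromosome 17, 45704788 to 45704847, minus strand, mm9), read 14581.8 and 22181.4 in stem cells, against 26205.9 and 19890.7 in non-stem cell epithelia. The intensities overlap, and after scaling the means were 8.95 ± 0.07 and 8.38 ± 0.11 (SD, n = 2). The difference was 0.58 ± 0.16 (SE, 95% interval 0.17 to 0.98), with an adjusted p of 0.049 by limma. Leaving out any 1 array ended the call, with differences of 0.50 to 0.65 and adjusted p of 0.058 to 0.22. Over 14 other settings it was lost in 8, with normexp giving 0.10, and turned to -1.68 on the spike-in scale.

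Hsp90aa1, the inducible Hsp90α (chromosome 12, 111929248 to 111929307, minus strand, mm9), read 2273.4 and 3668.0 in stem cells, against 4245.5 and 2982.9 in non-stem cell epithelia. After scaling the stem cell values, 6.22 and 6.40, were above the non-stem values, 5.83 and 5.57. The difference was 0.62 ± 0.18 (SE, 95% interval 0.17 to 1.07) with an adjusted p of 0.055 by limma. Without stem cells 1 it was 0.71 with an adjusted p of 0.033 by limma, and on the spike-in scale -1.64. It passed the threshold as higher in 6 of 14 other settings. The Hsp90aa1 minus Hsp90ab1 signal within an array was -2.68 and -2.60 in stem cells, against -2.63 and -2.74 in non-stem cell epithelia, a change of 0.04, so the 2 genes differ in their call but hardly in size.

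**Figure D2:**
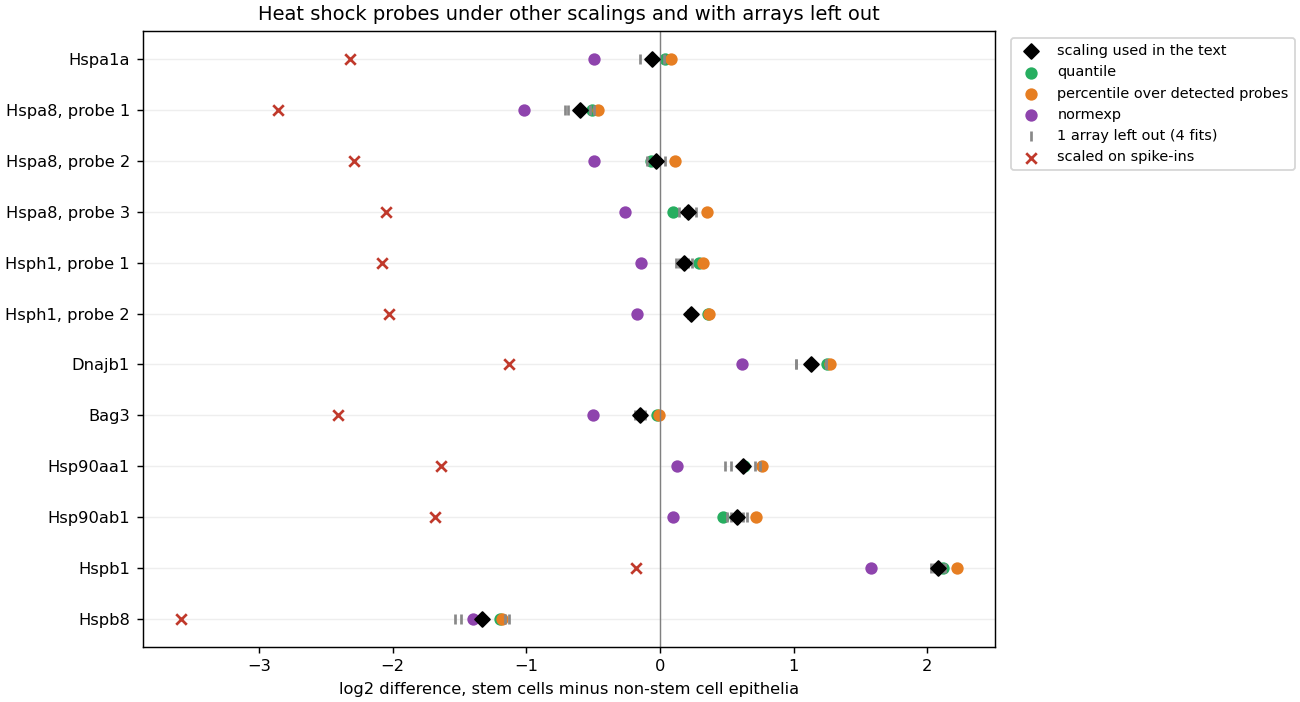
The log2 difference, stem cells minus non-stem cell epithelia, of the 12 heat shock probes under the scaling used in the text (diamonds), 3 other normalizations, the 4 fits that leave out 1 array and scaling on the spike-in spots. Hspb1 stays between 2.03 and 2.13 when 1 array is left out, while the crosses of the spike-in scale stand about 2.26 lower for every probe, which puts all 12 below 0.

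Related genes are given as lists with counts and medians. Each count stands beside the 13.1% of all genes called higher and the 15.8% called lower. A listed rise smaller than the spike-in shift of 2.26 turns negative on the spike-in scale. Among the genes named as higher in these lists, Gadd45b and Egr2 were the only ones above it. Among the regulators of the response, Hsf1, the main heat shock factor, differed by -0.19 ± 0.16 (SE, n = 2 per group; adjusted p = 0.40 by limma), with intensities of 78.2 and 107.4 in stem cells, against 206.0 and 189.3 in non-stem cell epithelia. Hsf2, a factor that can pair with HSF1, was higher by 0.70 ± 0.17 (adjusted p = 0.036 by limma). Its intensities overlapped, at 38.8 and 49.5 in stem cells against 60.2 and 43.4 in non-stem cell epithelia. The Hsf2 call was lost with no filter on dim probes and with normexp, where 0 genes of this list were higher and 2 lower. That call also did not hold in every fit that left out 1 array. Hsbp1l1, related to the HSF1-binding protein gene Hsbp1, fell by 0.79 (adjusted p = 0.025 by limma). Of 5 tested genes in this list, 1 was higher and 1 lower, with a median of -0.19; Hsf3, Hsf5 and Hsf2bp were not well above background on at least 2 arrays.

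The partners of cytosolic Hsp70 and Hsp90 mostly did not pass the test. Of 4 tested Hsp70 and Hsp110 relatives, only Hspa2 was called, with a difference of -0.81 ± 0.15 (adjusted p = 0.017 by limma). Of 16 other cytosolic J-domain genes, Dnajc2 of the ribosome-bound chaperone complex was higher (0.89), and Dnajc12 (-1.73) and Dnaja4 (-0.79) were lower; the median was -0.16, and with normexp 7 were lower. Dnaja1, another J-domain partner of Hsp70, differed by 0.30 (adjusted p = 0.22 by limma). None of 9 BAG proteins and Hsp70 adaptors was called by limma, 2 of them had an unadjusted p under 0.05, and the median was -0.28. With normexp 8 were lower. Stip1, which links Hsp70 to Hsp90, differed by -0.28 (adjusted p = 0.29). Of 18 Hsp90 co-chaperones, the immunophilin genes Ppid (0.67) and Fkbp4 (-0.82) were called in opposite directions, and Ahsa1, the activator of Hsp90 ATPase, differed by 0.08. The 4 tested Ppid probes did not all have the same sign.

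Among 6 other small heat shock genes, Cryab and Hspb2, which are neighbours in the genome, were both higher. Cryab (αB-crystallin) read 1966.1 and 2877.7 in stem cells, against 2006.8 and 1765.2 in non-stem cell epithelia, a scaled difference of 1.26 ± 0.15 (SE, adjusted p = 0.0051 by limma). Hspb2 rose by 1.05 ± 0.23 (adjusted p = 0.027 by limma). Its intensities were low and overlapped, at 28.0 and 58.9 in stem cells against 38.4 and 35.6 in non-stem cell epithelia. With no filter on dim probes, 0 genes of this list were higher. Hspb6, Hspb7, Hspb9 and Hspb11 lay between -0.46 and 0.11 and were not called, and the median of the 6 was 0.09.

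Chaperones of the endoplasmic reticulum, where secretory proteins fold, were mostly lower. Of 16 tested, 14 were lower and 1 higher, with a median of -1.31. The Hsp70 of this compartment, Hspa5 (BiP), read 2842.8 and 4550.6 in stem cells, against 17310.0 and 12213.4 in non-stem cell epithelia. It fell by 1.10 ± 0.18 (SE, adjusted p = 0.011 by limma), and the Hsp90 there, Hsp90b1 (Grp94), fell by 0.96 ± 0.16 (adjusted p = 0.012 by limma). The largest fall on the list measured on all 4 arrays was that of Sdf2l1 (-2.59), followed by Dnajb9 (-2.18) and Pdia4 (-2.12), and Dnajc3 stood at -1.92. Hyou1 was not well above background in stem cells and at least 4.14-fold lower there, taking the lowest signal well above background on each array as its limit. The exception was Serpinh1 (Hsp47), the collagen chaperone, which was higher by 1.76 ± 0.16 (adjusted p = 0.0022 by limma).

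In mitochondria, 5 of 12 tested chaperone and protease genes were lower and 1 was higher, against 15.8% and 13.1% of all genes, with a median of -0.38. The counts were 3 lower and 2 higher with quantile normalization or the percentile over detected probes, and 8 and 0 with normexp. The higher one was Hspe1 (Hsp10), at 0.67 ± 0.16 (SE, adjusted p = 0.032 by limma). Its partner Hspd1 (Hsp60) differed by 0.52 ± 0.18 (adjusted p = 0.085 by limma), and the mitochondrial Hsp70 Hspa9 by -0.01. The lower ones were Clpp (-0.83), Clpb (-0.79), Grpel2 (-0.74), Dnajc19 (-0.64) and Grpel1 (-0.58). Dnajc19 had 2 tested probes of opposite sign, and the value is that of the brighter. In the TRiC chaperonin and prefoldin, 2 of 14 (14.3%) were lower, near the 15.8% of all genes. They were Vbp1 (-1.06) and Cct6a (-0.92), and the median was -0.13. With normexp 8 were lower.

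Genes induced with proteotoxic stress moved both ways. Of 17 tested, 5 were higher (Gadd45b by 2.68, Mt2 by 1.72, Clu by 1.65, Atf3 by 1.19 and Mt1 by 1.02) and 3 lower (Fam46a at -2.16, Trib3 at -2.00 and Sqstm1 at -1.0), with a median of -0.05. Hmox1, the haem oxygenase gene, differed by -0.05 (adjusted p = 0.84 by limma). Of 16 immediate early genes, which cell dissociation is known to raise, 9 were higher and 1, Ier2 (-1.04), was lower, with a median of 0.78. Egr2 rose by 2.81, Fosb by 2.20, Klf6 by 2.16 and Egr1 by 1.83, all relative to the 75th percentile and each lower by 2.26 on the spike-in scale. Of the 16, 13 had a positive difference and 6 were not called, among them Junb at -0.94 (adjusted p = 0.055 by limma). The 9 higher genes moved in the direction of Hspb1 and Dnajb1, and the part of this list in either result was not tested.

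Over the 11 lists, 21 of 133 tested genes were higher (15.8%) and 30 lower (22.6%), against 13.1% and 15.8% of all genes. The endoplasmic reticulum list held 14 of the 30. With normexp 62 were lower. Without non-stem cell epithelia 1 these were 10 and 8, and without non-stem cell epithelia 2 they were 8 and 8. In both cases the calls left lay in the endoplasmic reticulum (6 lower), proteotoxic stress and immediate early lists, and 0 in the other 8. Over the whole array, calls went from 6535 probes to 1817 and 1275.

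**Figure D3:**
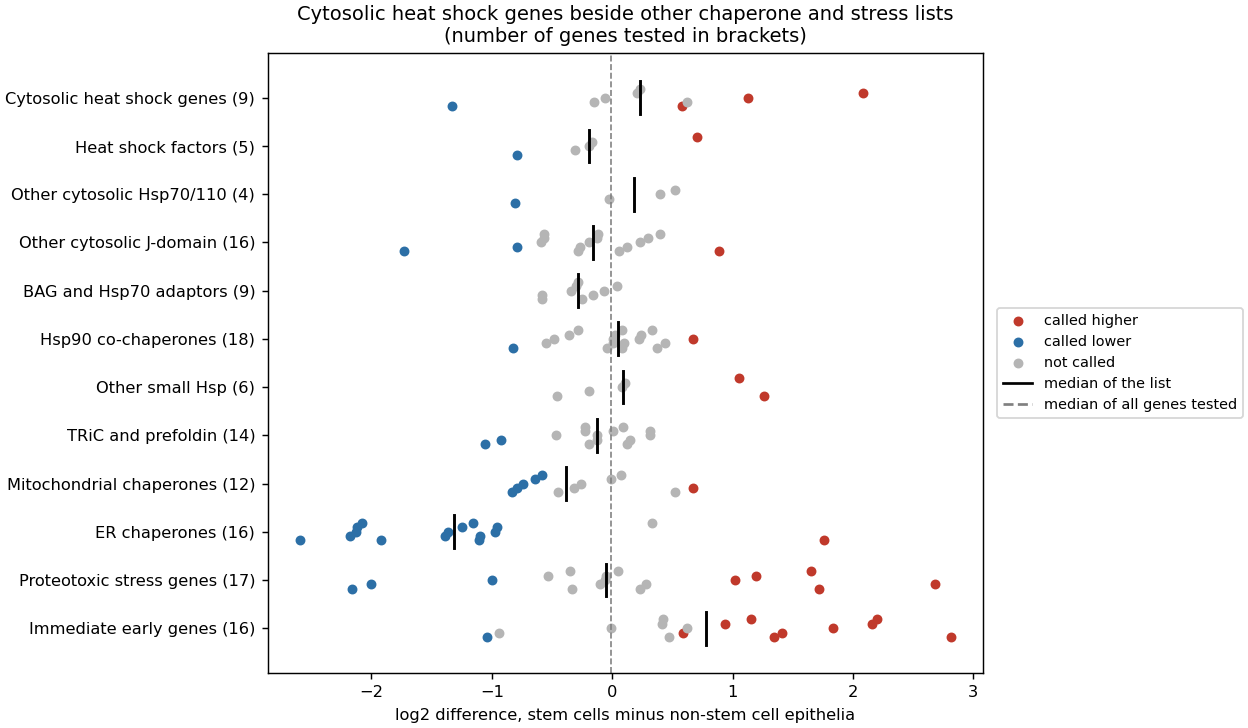
The log2 difference, stem cells minus non-stem cell epithelia, of each tested gene in the cytosolic heat shock list and 11 related lists, by its brightest tested probe. Coloured points were called by limma, the black bar is the list's median and the dashed line the median of all genes (-0.01). The cytosolic heat shock genes spread on both sides of 0 (median 0.23), and the endoplasmic reticulum chaperones lie to the left (median -1.31); on the spike-in scale every point lies 2.26 further left.

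Markers of cell types moved with the groups. The labels give no marker for the stem cells. The summed scaled signal of basal and myoepithelial markers was 241 and 247 in stem cells, against 115 and 118 in non-stem cell epithelia (11 of 12 tested, 6 higher). Krt17, a basal keratin, rose by 3.79, while the contractile genes Acta2 (-0.11), Myh11 (-0.21), Cnn1 (-0.37) and Tagln (0.04) did not pass the test and Oxtr was not well above background. Sums of 12 acinar markers were 5300 and 5050 in stem cells, against 11500 and 12500 in non-stem cell epithelia, with 7 lower. Sums of 10 granular duct markers were 2040 and 2050 against 434 and 431 (7 higher, 1 lower), and those of 10 of 11 other duct markers 1830 and 1920 against 1030 and 1000 (8 higher). Krt18, at log2 means of 10.18 and 9.39, was the largest part of the other duct sums. Sums of 5 of 6 erythroid markers were 63.5 and 64.6 against 266 and 308 (5 lower). Endothelial markers summed to 32.3 and 28.7 against 25 and 26.9 (7 of 11 tested), a near-equal sum over genes that moved both ways. Of the 7, 4 were higher and 1 lower, with a median of 2.35. Ly6c1 rose by 3.45, Robo4 rose by 2.35 and Vwf fell by 2.86. Ramp2 (at least 5.43-fold higher) and Cd34 (at least 5.90-fold higher) were not well above background on either non-stem array. White blood cell markers summed to 90.1 and 69.7 against 43.9 and 50.6 (6 of 10 tested, with Itgam higher by 0.86). Itgam, at log2 means of 6.13 and 5.27, was the largest part of these sums, and the other 5 tested were not called. Fibroblast markers summed to 21.0 and 22.8 against 8.95 and 9.44 (2 of 7 tested, with Dcn higher by 2.14) and mural markers to 5.38 and 6.09 against 4.14 and 3.97 (1 of 7 tested, not called). Cdh5, Ptprc, Col1a1 and Des, defining markers of these last 4 lists, were not well above background on 2 arrays. Called markers that were higher, as Hspb1 and Dnajb1 were, made up most of the calls in the basal, granular duct, other duct and endothelial lists and included Dcn and Itgam. Those that were lower, as Hspb8 and the endoplasmic reticulum chaperones were, were 7 of the 12 acinar markers and all 5 tested erythroid markers (median -2.19), beside Vwf and the granular duct marker Egf, while the other 5 acinar markers were not called. The part of cell makeup in each was not tested.

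The genes most like the 2 extreme members were found by the distance between 4-array profiles, centred on their means, over the 14345 genes well above background on all 4 arrays. Nearest to Hspb1 were Klk1b11 (distance 0.062, difference 2.04), Cnn2 (0.069, 2.10) and Klk1b26 (0.071, 2.05). The kallikrein genes have closely similar sequences, and their probes may pick up one another's transcripts. Nearest to Hspb8 were Rab2a (0.080, -1.27), Atg16l1 (0.088, -1.39) and Gm8096 (0.099, -1.31). With 4 arrays in 2 groups, such a distance follows mainly the size of the group difference.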

How the data were processed

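Spot intensity, on a linear scale, was read from the deposited scanner files, which the authors made with Agilent Feature Extraction 10.7.3.1 per the file headers. The submitters' processing notes name 9.1, and the difference was not resolved. Cy3-labelled RNA was made by amplifying total RNA, per the labels' protocols. A deposited table of log2 values made by the authors served as an alternative. Its centring stays unknown (column medians -0.27, -0.55, -0.83 and -0.75), but its differences between arrays correlated at 1 with the scanner values, which settles direction. A correlation does not settle scale. The group differences of Hspb1 (2.08) and Hspb8 (-1.33) were the same with both sets of values. Control and outlier spots were dropped. Each array's log2 processed signal was set relative to its 75th percentile over the non-control probes, and repeated spots were averaged. Probes well above background on at least 2 of 4 arrays were fitted by group with limma 3.58.1 (lmFit and eBayes, two-sided, 5.35 degrees of freedom; R 4.3.3). P-values were adjusted by Benjamini-Hochberg over all of these probes, with a threshold of 0.05. The fit was checked on simulated data. The number of arrays limits the precision, and an exact permutation test of 2 against 2 arrays cannot go below p = 0.333. Probe coordinates are those of the scanner files (mm9).

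The heat shock genes, the related lists and the rule for the genes named were chosen with earlier results of these data known. The rule takes every heat shock gene, 12 further genes by name, up to 4 called genes of smallest p per related list, up to 3 genes and undetected defining markers per cell type list, and the 3 genes nearest in profile to the 2 extreme members. Genes that complete a count of 5 or fewer, the contractile genes and the list examples beyond the rule were named after their values were seen. Alternatives were other scalings, normexp background correction with an offset of 50, other filters, another variance model, a replicate block, 2 other ways to take 1 value per gene, and leaving out each array. Scaling on the spike-in spots was chosen after seeing the data.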

Additional observations from a re-analysis of the deposited data

How the results depend on the processing

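The deposited log2 values left every heat shock call and direction as it was. Their differences between arrays correlated at 1 with the scanner values, so that setting could hardly change a call. Hspb1 was called in 13 of 14 settings, this one included. With quantile normalization Hspa1a was at 0.04; with the percentile over detected probes Hspa1a was at 0.08 and the Hspa8 probe A_55_P2069721 at 0.11. Normexp turned the brightest Hspa8 probe to -0.26 and the Hsph1 probes to -0.14 and -0.17, with 5 heat shock probes (3 genes) and 62 listed genes lower. With no filter on dim probes, 1 heat shock probe (1 gene) was higher and 0 lower, 1769 probes were called in all, and 8 listed genes were higher and 8 lower; 55681 probes were then adjusted over. A filter on all 4 arrays and an intensity trend with robust variances each gave 2 heat shock probes lower. Scaling on the spike-in spots gave 0 heat shock probes higher and 11 lower (0 and 8 genes), 21969 probes called, and 0 listed genes higher and 124 lower; Hspa8 A_55_P2080603 was at -2.05, Hsph1 at -2.08 and -2.03, Hsp90aa1 at -1.64, Hsp90ab1 at -1.68, Hspb1 at -0.18 (adjusted p = 0.69 by limma) and Dnajb1 at -1.13. Leaving out 1 array gave 1 to 3 heat shock probes and 1 to 3 genes higher, 0 to 2 probes and 0 to 1 genes lower, 1275 to 8307 probes called, and 8 to 19 listed genes higher and 8 to 34 lower; Hspa1a ranged from -0.15 to 0.03 and Hspa8 A_55_P2069721 from -0.10 to 0.04. Where an array is left out, fewer samples stand behind each value and the lone array of a group is assumed to vary like the other group; the other causes were not tested. Same-numbered arrays deviated with a correlation of -0.079, so the numbers were not taken as pairs; with the replicate block 6390 probes were called and Hsp90ab1 was not (adjusted p = 0.093 by limma), while the other heat shock calls held; the mitochondrial list then had 3 lower and 0 higher. The number of arrays, 2 per group, limits all of these values, and dim probes have less certain log2 values.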

Other observations

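Genes with a 3-unit heat shock element in the RefSeq promoter window were described as a further group, without a test. Of 51 such genes tested, 3 (5.88%) were higher in stem cells and 8 (15.7%) lower, with a median difference of 0.02 on the log2 scale. Among 8526 tested genes with a window but no such element, 12.4% were higher and 17.9% lower, with a median of -0.05. Without the heat shock gene Hsph1 the counts were 3 and 8 of 50. The letters of an element do not show that a factor binds there, and with 51 genes a difference of a few calls decides these shares.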
